A study of Mus musculus with 30 samples.

Results

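The smooth muscle contractile genes Acta2, Tagln, Cnn1, Myl9, Tpm1, Tpm2, Actg2 and Cald1 were followed through 30 mouse samples of a chemical reprogramming study. The 8 genes were chosen by symbol, and every probe annotated with one of these symbols was taken. This gave 10 of the 26423 probes on the array and 7 of the 8 genes. Actg2, the enteric smooth muscle actin, had no annotated probe and is not analysed here.

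Messenger RNA was measured on a 1-colour oligonucleotide array. Chemically induced pluripotent stem cell (CiPSC) lines gave 11 samples. By their label codes for the small molecules, these were CiPS34 (VC6TFMP+Z), CiPS50 (VC6F+Z), CiPS21 (VC6TFDBS+Z), CiPS45 (FC6+Z) and a control line (VC6TF+Z) from mouse embryonic fibroblasts (MEF), CiPS WT1 and CiPS WT2 (both VC6TFMPS+Z) from wild-type MEF, MNF CiPS7 (VC6TFS+Z) and MNF CiPS1 (VCT6FMDBR+Z) from neonatal fibroblasts, MAF CiPS3 (VC6TFDM+Z) from adult lung fibroblasts, and ADSC CiPS2 (VC6TFMPS+Z), titled as from adipose-derived stem cells but with adult lung fibroblasts as its source label. The labels do not spell these codes out. Factor-induced lines from MEF gave 2 OSKM iPSC samples, with no chemical treatment, and 2 SKM-FSK iPSC samples, treated with the agent coded F. Embryonic stem cells (ESC) gave 5 untreated samples, 4 of line R1 and 1 of line TT2. MEF under treatment were sampled once each at day 12 (VC6TF), day 20 and day 32 (both VC6TF+Z). The untreated somatic samples were 4 MEF samples (MEF1, MEF2, MEF3 and a wild-type MEF), neonatal fibroblasts (MNF), adult lung fibroblasts (MAF) and adipose-derived stem cells (ADSC), 7 in all. Per the labels, ESC, iPSC and CiPSC were all kept on a feeder layer of mitotically arrested MEF, and whether feeder cells were removed before RNA extraction is not given in the sources used here. Strain and sex are not given there either.

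The samples came in 5 sets of 7, 9, 4, 4 and 6 samples that the authors normalized separately, each with 1 ESC and at least 1 somatic sample, so levels are compared here only within a set. Precision is limited by how few arrays there are. A sample is 1 column that appears to average 2 or 3 replicates, and whether replicates or samples were separate cultures is not stated, so the p-values measure the spread between these samples, which may be technical. The labels of the pluripotent groups held against defining markers in the fit over all sets. There 8 of 8 tested pluripotency genes were higher in CiPSC than in somatic samples (14.8% of all genes). In turn 9 of 10 tested fibroblast genes were lower (13.3% of all genes). In the CiPSC control line of set 5, 6 of 9 pluripotency genes were at least 2-fold above MEF3 and 1 below. Pou5f1 read 24.2 in that line and 140.5 in ESC5, against 61.0 in MEF3. Sox2 read 41.1 and 34.2, against 28.2, and Tfcp2l1 18.7 and 17.3, against 14.6. MEF3, the somatic sample of set 5, stood apart in some fibroblast genes. The collagen gene Col1a1 read 35.3 in ESC5, against 9.92 in MEF3, and the matrix gene Lum 238 in ESC5, against 81.3 in MEF3. Macrophage markers (7 genes) summed to 6795 in MEF3 and 4294 in ESC5, of which Cd68 gave 2268 and 3958.5. Within the other sets, MEF2 had 12396 and ESC4 2596 (7 genes), and MEF1 had 4721 and ESC1 496 (3 genes). The wild-type MEF had 14991 and ESC3 1524 (2 genes). In set 2, over 2 genes, MAF had 7103, ADSC 610 and MNF 290, against 459 in ESC2. These sums are not on one scale across sets. All differences from MEF3 rest on that 1 sample. In such bulk samples fewer cells of a type and less RNA per cell cannot be told apart.

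Smooth muscle cells contract through actin and myosin filaments. Acta2 encodes smooth muscle alpha-actin, Tagln the actin-binding protein transgelin (SM22-alpha), Cnn1 calponin and Cald1 caldesmon, which both bind actin and restrain myosin, Tpm1 and Tpm2 tropomyosins, which coat the actin filament, and Myl9 a regulatory light chain of myosin. Cultured fibroblasts also express many of them, and Acta2 in stress fibres is the classic mark of the myofibroblast. Transcription of several of these genes is known to depend on serum response factor (SRF), with its coactivators myocardin and the MRTFs, which binds the CArG box, and to be raised by TGF-beta signalling.

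The promoters of Acta2 and Myl9 are shown because they were the 2 of the 6 genes with a RefSeq promoter (build GRCm38.p6) that held a CArG box in the 250 bases before the transcription start. Each is written 5′ to 3′ on the gene's strand, with the box in capitals. The box was searched as CC, 6 bases that are each A or T, and GG, which reads as the same pattern on both strands, and again with 1 of the 6 core bases allowed to be G or C.
Acta2, chr19:34255374-34255623, minus strand: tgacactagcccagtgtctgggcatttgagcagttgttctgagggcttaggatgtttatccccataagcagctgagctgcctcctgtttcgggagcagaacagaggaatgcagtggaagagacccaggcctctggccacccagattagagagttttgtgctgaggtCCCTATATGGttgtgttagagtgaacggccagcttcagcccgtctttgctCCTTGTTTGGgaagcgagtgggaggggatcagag
Myl9, chr2:156775214-156775463, plus strand: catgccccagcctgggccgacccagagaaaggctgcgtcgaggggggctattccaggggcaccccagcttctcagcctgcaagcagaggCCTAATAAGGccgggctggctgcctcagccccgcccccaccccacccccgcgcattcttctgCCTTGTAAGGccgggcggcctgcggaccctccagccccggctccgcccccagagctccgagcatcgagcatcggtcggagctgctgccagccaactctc
In Myl9, CCTAATAAGG at -161 to -152 matched exactly and CCTTGTAAGG at -99 to -90 had 1 core G. In Acta2, CCCTATATGG at -84 to -75 had 1 core C and CCTTGTTTGG at -34 to -25 had 1 core G. Of 32851 promoters of the same length, 1.47% held an exact box and 8.59% held a box with at most 1 such base. A match is a description of letters and was not tied to binding in these data. No box of either kind was found in this window for Cnn1, Tpm1, Tpm2 or Cald1, and Tagln was not searched.

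Acta2 and Tagln were measured in sets 3, 4 and 5, in 14 samples. In set 3, the Acta2 probe read 2404 in CiPS WT1 and 2257 in CiPS WT2, and 204 in ESC3, against 3925 in the wild-type MEF. In set 4 it read 38.2 and 43.6 in the SKM-FSK iPSC lines and 33.2 in ESC4, against 7978 in MEF2. In set 5 the CiPSC control line read 335 and ESC5 125, against 6495 in MEF3. All 8 pluripotent samples were below the MEF of their set, but the CiPS WT lines by less than 2-fold.

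Tagln too was below MEF in every pluripotent sample. It read 532 and 501 in CiPS WT1 and CiPS WT2 and 47.8 in ESC3, against 1817 in the wild-type MEF. The SKM-FSK iPSC lines read 1.83 and 8.04 and ESC4 6.50, against 1316 in MEF2. The CiPSC control line read 49.9 and ESC5 21.2, against 5806 in MEF3. Each of these samples was at least 2-fold below the MEF of its set. The set 4 values lie so low that they have no dependable order.

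**Figure D1:**
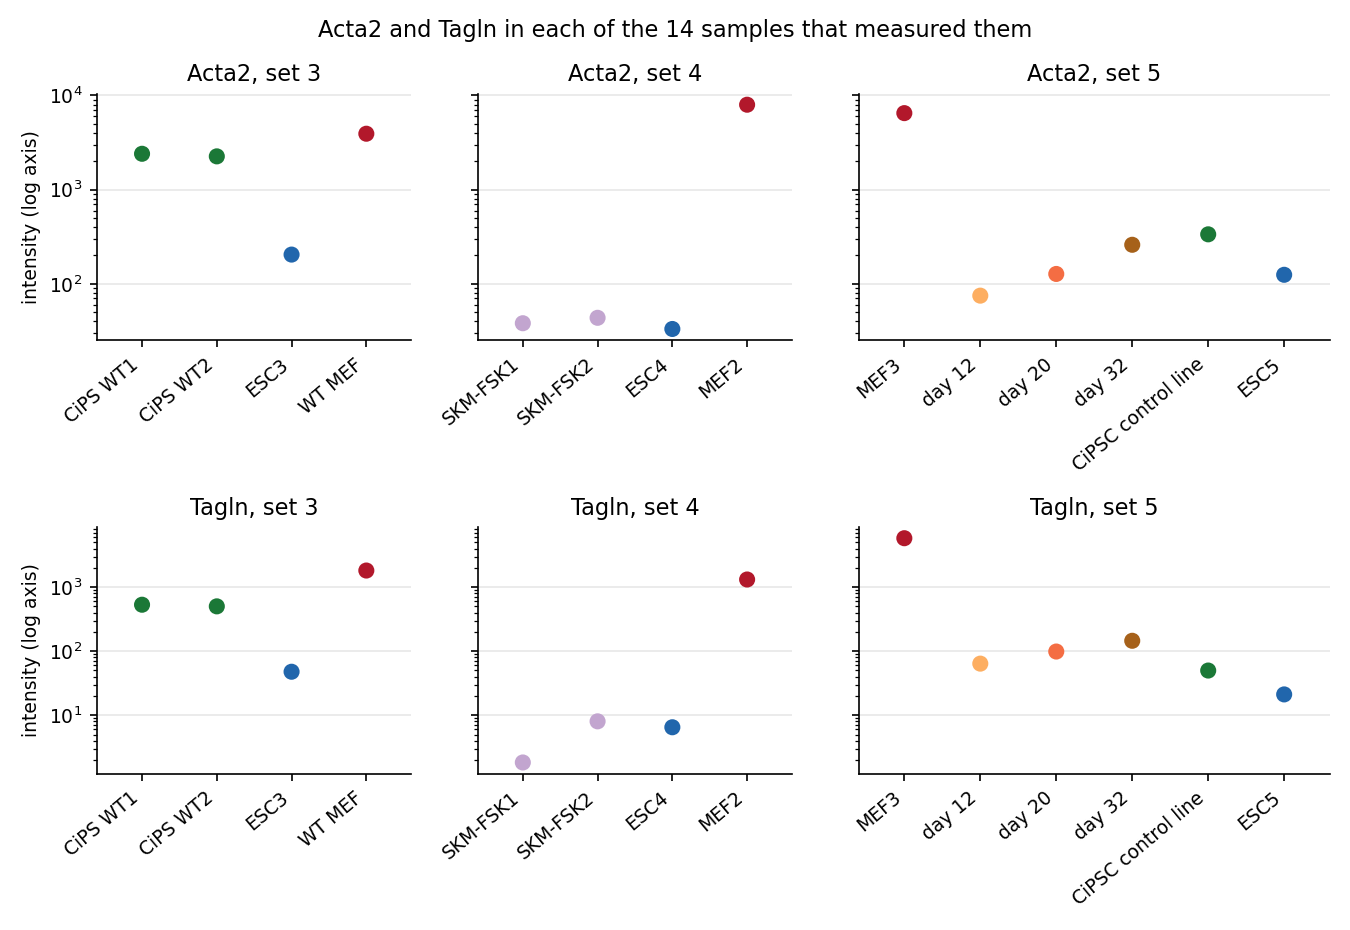
Intensity (log axis) of the Acta2 probe used in the tests (top) and the Tagln probe (bottom), 1 point per sample, by set; colours mark the groups, with somatic samples in red, ESC in blue and CiPSC in green. The CiPS WT lines of set 3, at 2404 and 2257 for Acta2, lie much closer to their MEF (3925) than ESC3 does (204).

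The comparison of CiPSC with somatic samples asks how far the starting cells' genes were switched down in the finished lines. In the limma fit with group and set as terms, 5 of the 6 genes tested were lower in CiPSC at an adjusted p (Benjamini-Hochberg over all genes) under 0.05 and at least 2-fold, where 13.3% of 16497 genes were lower by the same rule; 0 were higher, against 14.8% of genes. The median log2 difference of the 6 genes was -2.87, beside -0.11 over all genes tested. Tagln was lower, with a log2 difference of -4.14 ± 0.96 (SE, n = 3 and 3, adjusted p = 0.00731, limma). Acta2 differed by -2.72 ± 0.80 (SE, n = 3 and 3, adjusted p = 0.0237, limma). Against the single MEF sample of their set, CiPS WT1 and CiPS WT2 differed by -0.71 and -0.80 and the CiPSC control line by -4.28. The 2-fold size of the Acta2 difference thus leans on that 1 line and MEF3. MEF2, the remaining somatic sample, lay in set 4, which held no CiPSC. The Acta2 call was lost without set 4 (adjusted p = 0.0597) and without the set term (adjusted p = 0.0635, over its alternatives 0.0200 to 0.0635). Without the CiPS WT lines neither gene could be tested, because only 1 CiPSC sample remained, and without MEF3, the wild-type MEF or the CiPSC control line neither was testable in 2 sets.

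Myl9 was measured in all 30 samples. As a percentage of the somatic mean of the same set, it lay at 2.99, 5.46 and 43.8% in CiPSC (lowest, median and highest of 11), against 58.2, 100 and 124% in the 7 somatic samples. No CiPSC line reached the lowest somatic sample, MAF. The fitted log2 difference was -3.85 ± 0.52 (SE, n = 11 and 7, adjusted p = 3.88e-06, limma).

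Cald1 lay at 1.64, 8.26 and 43.4% in CiPSC, against 93.8, 100 and 106% in somatic samples. These groups did not overlap either, and the fitted log2 difference was -3.02 ± 0.40 (SE, adjusted p = 3.15e-06, limma). The probe that stood for Tpm1 lay at 6.69, 16.6 and 68.2% in CiPSC, against 64.1, 100 and 127% in somatic samples, with CiPS WT2 above the lowest somatic sample, MNF. Its fitted log2 difference was -2.27 ± 0.33 (SE, adjusted p = 9.53e-06, limma), but the direction depends on the probe, as described below.

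Tpm2 was the gene without a call. It was dim throughout, with intensities of 69.3, 112 and 254 in CiPSC and of 79.4, 262 and 736 in somatic samples (lowest, median and highest). As a share of the somatic mean it lay at 17.7, 42.3 and 106% in CiPSC, against 35.6, 100 and 206% in somatic samples, so the groups overlapped. The fitted log2 difference of -0.93 ± 0.31 (SE, adjusted p = 0.0210, limma) fell just short of 2-fold. Tpm2 gained a call under 10 of 37 alternatives, among them dropping the 2-fold rule and leaving out ADSC (-1.02) or MAF (-1.16).

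**Figure D2:**
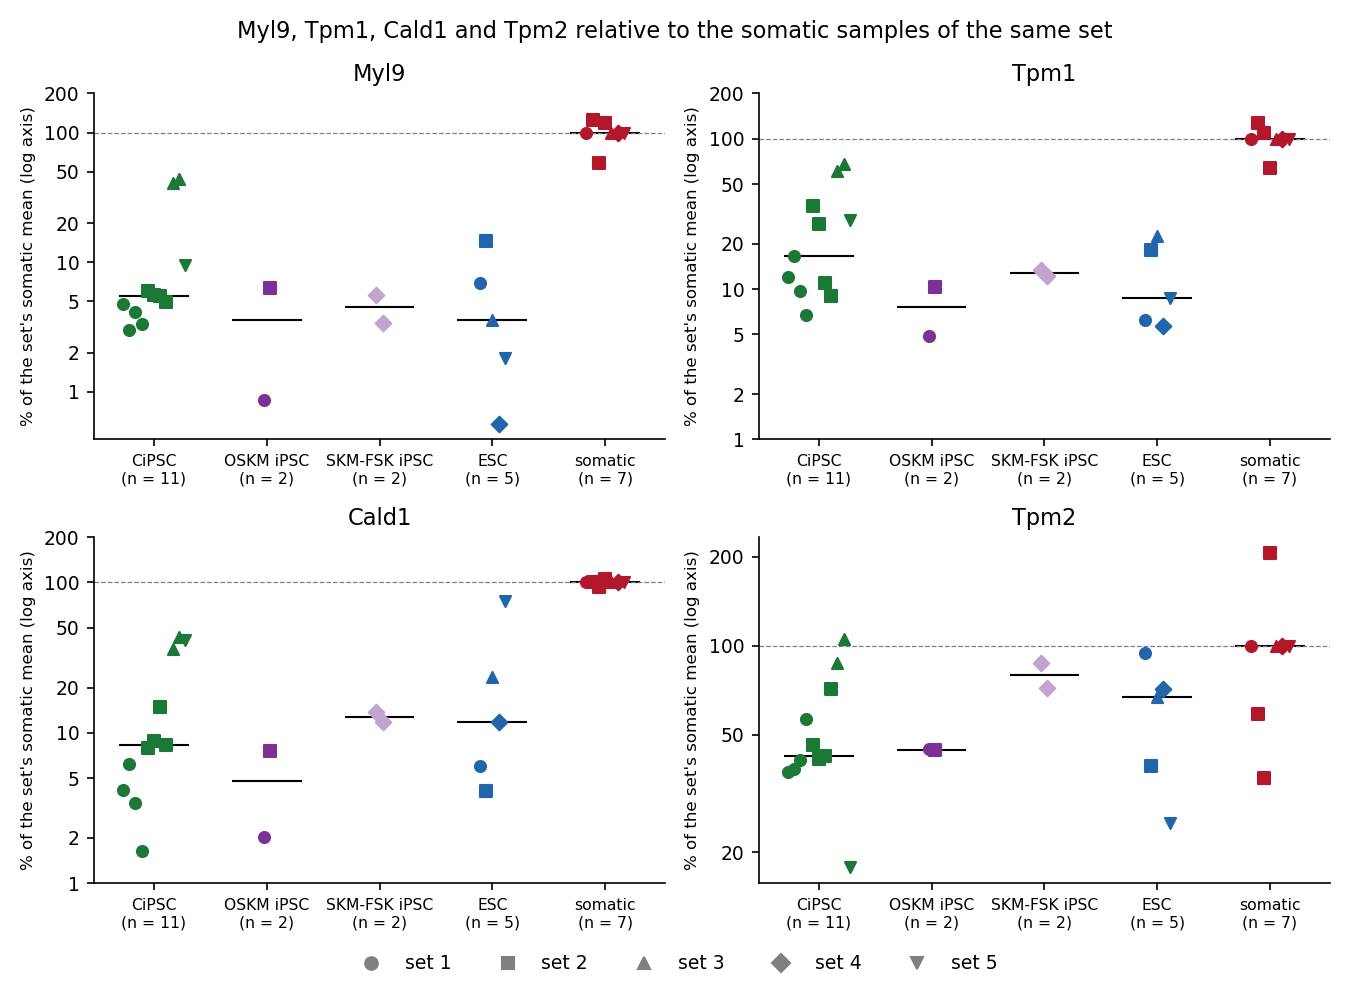
Myl9, Tpm1 (the probe used in the tests), Cald1 and Tpm2 as a percentage of the mean of the somatic samples of the same set (log axis), 1 point per sample; the marker shape gives the set, the bar is the group median and the dashed line is 100%, where a set's only somatic sample lies by construction. The CiPS WT lines (green triangles) are the highest CiPSC points for Myl9 (40.6 and 43.8%) and Tpm1 (60.7 and 68.2%).

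The factor-induced lines and ESC were set against the same somatic samples, so these comparisons share their controls with the one above. In ESC, 5 of 6 genes tested were lower and 0 higher, where 14.2% of all genes were lower and 15.1% higher. Acta2 differed by -5.96 ± 0.75 on the log2 scale (SE, n = 3 and 3, adjusted p = 2.02e-04, limma) and Tagln by -7.00 ± 0.90 (adjusted p = 2.29e-04, limma). Myl9 differed by -4.81 ± 0.62, Tpm1 by -3.23 ± 0.39 and Cald1 by -2.98 ± 0.48 (n = 5 and 7), while Tpm2 differed by -0.76 ± 0.36 with no call (adjusted p = 0.107, limma). With a gene's probes averaged, the Tpm1 call was lost (-0.03, adjusted p = 0.963, limma).

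OSKM iPSC were measured in sets 1 and 2, where the array reported neither Acta2 nor Tagln. There 3 of 4 genes tested were lower and 0 higher, against a background of 10.0% of genes lower and 12% higher. Myl9 stood at 0.868 and 6.28% of the somatic mean in the 2 lines, with a fitted log2 difference of -5.21 ± 0.85 (SE, n = 2 and 7, adjusted p = 8.75e-05, limma). Tpm1 differed by -3.41 ± 0.54 and Cald1 by -3.78 ± 0.66, and Tpm2 by -0.99 ± 0.51 without a call (adjusted p = 0.179, limma). Here too the Tpm1 call was lost with its probes averaged (-1.38, adjusted p = 0.138, limma).

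In SKM-FSK iPSC, 5 of 6 genes were lower and 0 higher, against a background of 7.92% of genes lower and 7.30% higher. These lines lay in set 4, where MEF2 was the only somatic sample. The other somatic samples counted in n came from other sets and entered only through the set terms. Acta2 differed by -6.64 ± 0.99 (SE, n = 2 and 3, adjusted p = 0.00201, limma) and Tagln by -8.09 ± 1.18 (adjusted p = 0.00183, limma). With probes averaged the Acta2 call was lost (adjusted p = 0.0678, limma), and the Tpm1 difference was 0.13 (adjusted p = 0.946, limma). Myl9, at 5.59 and 3.43% of MEF2, only just passed in the fit (-3.18 ± 1.08, n = 2 and 7, adjusted p = 0.0491, limma), and its adjusted p ranged up to 0.246 over the alternatives. Within set 4 its mean log2 difference from MEF2 was -4.51. With either of the 2 lines left out, 2 genes, Acta2 and Tagln, kept their call. Tpm1 differed by -2.51 ± 0.68, Cald1 by -2.91 ± 0.84 and Tpm2, not called, by -0.47 ± 0.64.

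**Figure D3:**
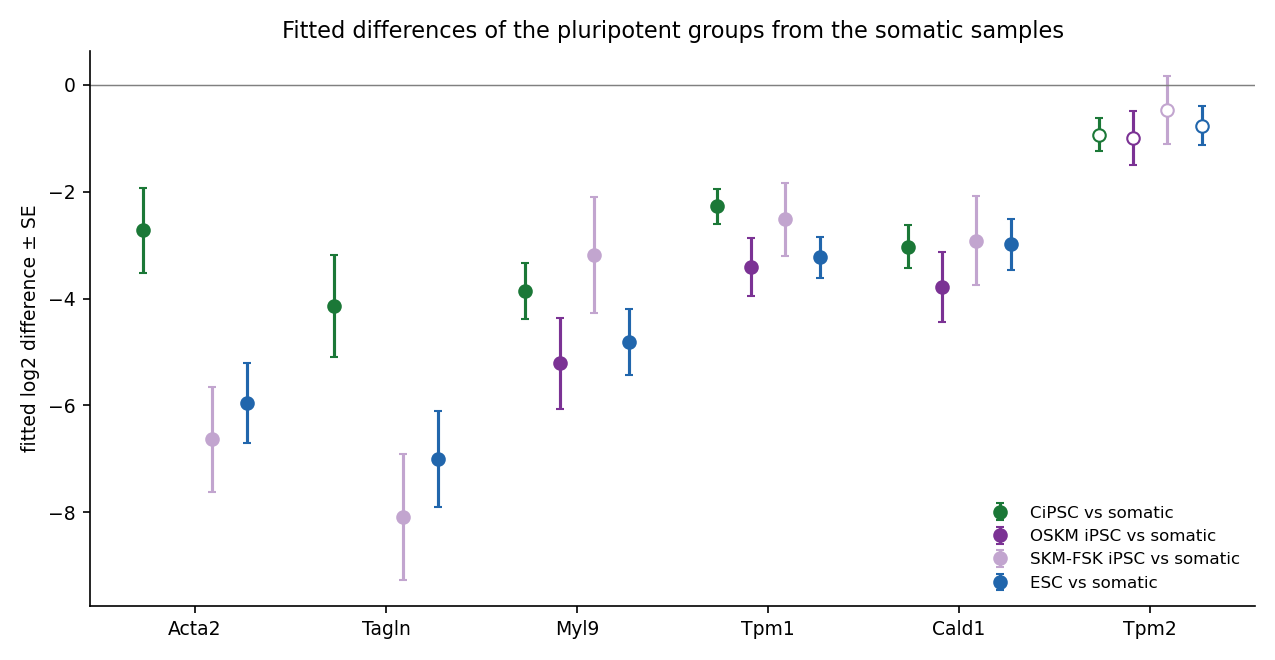
Fitted log2 difference (± SE) from the somatic samples for each gene and each pluripotent group; filled points passed an adjusted p under 0.05 and 2-fold, open points did not, and OSKM iPSC have no value for Acta2 and Tagln. Every point lies below 0; Tpm2 (open) is nearest to it in each group.

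Set directly against ESC, the CiPSC lines showed no call among the 6 genes. Only 5 of 16497 genes were called in this comparison, all of them higher in CiPSC (0.0303%), and 819 had an unadjusted p under 0.05. Acta2 was higher in CiPSC by 3.24 ± 0.80 on the log2 scale (SE, n = 3 and 3, unadjusted p = 0.00285, adjusted p = 0.439, limma), in 3 of 3 lines. Tagln was higher by 2.86 ± 0.96 (adjusted p = 0.798, limma), also in 3 of 3 lines. The other differences were 0.96 ± 0.59 for Myl9, 0.96 ± 0.37 for Tpm1, -0.16 ± 0.35 for Tpm2 and -0.04 ± 0.46 for Cald1.

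Behind the Myl9 value lay a split between sets. The 4 lines of set 1 differed from ESC1 by -1.22 to -0.54 on the log2 scale and the 4 lines of set 2 from ESC2 by -1.57 to -1.28. CiPS WT1 and CiPS WT2 were above ESC3 by 3.49 and 3.60, and the CiPSC control line was above ESC5 by 2.38. Cald1 differed by set in another way, with all 4 lines of set 2 above ESC2, by 0.95 to 1.86. CiPS WT1 and CiPS WT2 were above ESC3 by 0.63 and 0.88. The lines of set 1 differed from ESC1 by -1.88 to 0.03 and the control line from ESC5 by -0.87. ESC2 was the only TT2 sample, so set 2 and the ESC line cannot be told apart. None of these set differences was tested.

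Among the CiPSC lines measured, CiPS WT1 and CiPS WT2 had the highest shares of their set's somatic mean for Acta2, Tagln, Myl9, Tpm1 and Tpm2. For Cald1 the control line lay between them. Acta2 and Tagln were measured in only 3 CiPSC lines. For Tpm2, MAF CiPS3 stood higher, at 119%, when set against its own starting cells, MAF. Acta2 stood at 61.2 and 57.5% of the wild-type MEF, Tpm1 at 60.7 and 68.2%, Myl9 at 40.6 and 43.8%, Cald1 at 36.4 and 43.4% and Tagln at 29.3 and 27.6%. In ESC3 the same genes stood at 5.21% for Acta2, 22.6% for Tpm1, 3.60% for Myl9, 23.5% for Cald1 and 2.63% for Tagln. Tpm2 stood at 87.2 and 106% in the lines and at 67.1% in ESC3. A second Acta2 probe gave a like picture in this set, at 76.0 and 64.7% in the lines and 14.4% in ESC3.

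The same lines carried pluripotency genes near the ESC level. Sox2, a core pluripotency factor, read 10188 and 9183 in CiPS WT1 and CiPS WT2, against 9859 in ESC3. Esrrb, an orphan nuclear receptor of the same network, read 11947 and 12831, against 10473 in ESC3. Fibroblast genes were reduced but above ESC3. The summed level of the 10 fibroblast markers measured was 22.6 and 26.6% of the wild-type MEF in the lines and 9.87% in ESC3. Much of these sums was the vimentin gene Vim, with 29878 of 42861 in CiPS WT1, 34643 of 50356 in CiPS WT2 and 17451.5 of 18695 in ESC3. In each line 8 of 10 markers were at least 2-fold above ESC3, and the share of all genes above ESC3 is not given here.

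Single fibroblast markers varied widely in these lines. Vim, the intermediate filament vimentin, stood at 53.5 and 62.0% of the wild-type MEF, Thy1, a surface marker, at 17.7 and 25.5%, the mesenchymal factor Prrx1 at 15.0 and 16.2% and the collagen gene Col1a2 at 13.0 and 11.7%. The matrix gene Dcn stood at 1.87 and 2.57% and Pdgfra, a receptor of mesenchymal cells, at 1.33 and 1.67%. Acta2 thus kept a larger share of the MEF level than 9 of the 10 markers in CiPS WT2 and all 10 in CiPS WT1. The part of MEF feeder RNA in these values was not tested.

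With the CiPS WT lines left out, a setting chosen after seeing the data, Myl9 in CiPSC against somatic samples differed by -4.46, Tpm1 by -2.52, Cald1 by -3.31 and Tpm2 by -1.11 on the log2 scale. All 4 passed, but the share of all genes that passed in this setting is not given here.

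The time course asks when these genes change along the way. It has 1 sample per day and no test. In MEF3 and at days 12, 20 and 32, Acta2 read 6495, 74.9, 127 and 260. Tagln read 5806, 64.0, 98.8 and 146. Both were far lower at day 12 than in MEF3, with log2 differences of -6.44 and -6.50, and each later day was above the one before. From ESC5, day 12 differed by -0.74 for Acta2 and by 1.60 for Tagln on the log2 scale.

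Myl9 read 13930 in MEF3 and 4245, 3888 and 3836 at days 12, 20 and 32. It was lower on each day than in MEF3 but stayed 3.90 to 4.05 above ESC5 on the log2 scale. The value then lay at 1336 in the CiPSC control line, against 256 in ESC5. Tpm1 read 8428 in MEF3 and 8264, 8643 and 7069 on the days, with log2 differences from MEF3 between -0.25 and 0.04, and 2411 in the CiPSC control line, against 735 in ESC5.

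Cald1 went the other way from Acta2, at 1858 in MEF3 and 6569, 7263 and 7543 at days 12, 20 and 32, or up to 2.02 above MEF3 on the log2 scale. The CiPSC control line had 767, against 1403 in ESC5. MEF3 was itself low for Cald1, being 0.41 above its ESC on the log2 scale, where the other 6 somatic samples were 2.09 to 4.70 above theirs. Tpm2 read 491 in MEF3 and 201, 145 and 111 on the days.

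Cnn1 was reported in set 5 alone and was too dim to read, between 1.08 and 21.5 in all 6 samples, in a set where 18.5 to 18.7% of values lay under 16. With values under 16 set to 16, its differences from MEF3 at days 12, 20 and 32 were 0, 0.33 and 0.

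At least 2-fold below MEF3 were 4 of the 7 genes on each day (Acta2, Tagln, Myl9 and Tpm2), where 31.5, 33.0 and 35.7% of 23609 genes were at days 12, 20 and 32. Higher by 2-fold were 2 of 7 on each day (Cald1 and the dim Cnn1), where 24.9, 25.8 and 28.1% of genes were. From one sampled day to the next, few genes of the whole table changed by 2-fold, and few of the 7 did. At day 20 against day 12, 0 of 7 were 2-fold lower (3.76% of genes) and 1, Cnn1, was higher (5.49%), and at day 32 against day 20, 0 were lower (7.15%) and 1, Acta2, was higher (9.0%). In the CiPSC control line against day 32, 4 of 7 (Tagln, Myl9, Tpm1 and Cald1) were at least 2-fold lower, where 19.4% of genes were, and 0 were higher, where 21.1% were. Against MEF3, the CiPSC control line had 6 of 7 genes 2-fold lower (35.9% of genes) and ESC5 had 5 of 7 (37.7%), with 1, Cnn1, higher in each (27.9 and 29.7% of genes).

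Marker lists moved along the course as well, counted here with values under 16 set to 16. Of all genes, counted without that floor, 24.9, 25.8 and 28.1% were at least 2-fold above MEF3 on the days. At least 2-fold below it were 31.5, 33.0 and 35.7%. The summed level of 13 fibroblast markers was 223, 184 and 145% of MEF3 at days 12, 20 and 32, with 8, 7 and 6 of 13 at least 2-fold higher. Against ESC5, 13, 12 and 12 of 13 were at least 2-fold higher on the 3 days. The share of all genes above ESC5 is not given here, so these counts have no background. Lum, the most raised of the 13 on each day, read 81.3 in MEF3 and 18915, 9506 and 7555 on the days. At day 32, Col1a2, Col6a1, Prrx1, Vim and S100a4 were below MEF3, at 31.5, 77.4, 81.2, 92.5 and 94.8% of it, and the rest were above. Pdgfra read 1610.5 in MEF3 and 15179.5, 0.1 and 3573.5 on the days. The 18 other smooth muscle genes summed to 25, 23.6 and 22.9% of MEF3, with 11, 12 and 13 of 18 at least 2-fold lower. Pericyte markers summed to 14.3, 12.3 and 11.8% and macrophage markers to 10.4, 10.0 and 32.4% of MEF3. Most of the macrophage sums of 706, 683 and 2200 was Cd68, at 425, 428 and 2011 on the days. Cd68 also read 1913 in the CiPSC control line, against 3958.5 in ESC5, so the day 32 sum does not stand for the whole list. The part of these cell mixtures in the Acta2 and Tagln values was not tested.

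**Figure D4:**
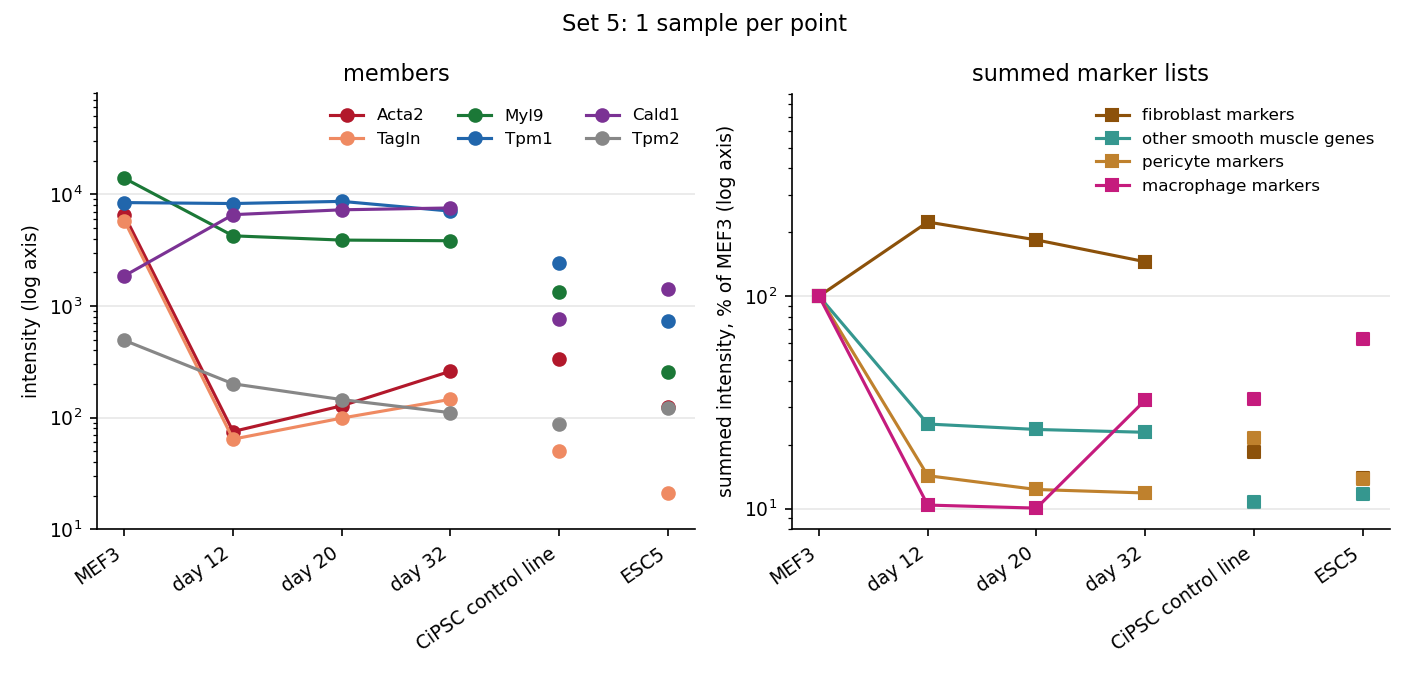
Set 5, with 1 sample per point: intensity of 6 of the genes (left) and summed intensity of 4 marker lists as a percentage of MEF3 (right), both on log axes, from MEF3 through days 12, 20 and 32 to the CiPSC control line and ESC5 (unconnected); each line is to be read along itself, since probes of different genes are not on one scale. Acta2 and Tagln are at 74.9 and 64.0 by day 12, while Tpm1 stays between 7069 and 8643 on the 3 days and the fibroblast sum is at or above 145%.

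Regulators of the programme were mixed along the course. Srf, the CArG-box factor, read 2414 in MEF3 and 9449, 10714 and 10118 at days 12, 20 and 32, then 81.3 in the CiPSC control line, against 55.9 in ESC5. Myocd, the myocardin gene, stayed dim, at 133 in MEF3 and 89.8, 64.5 and 54.1 on the days. Tgfb1i1, the SRF-linked coactivator Hic-5, read 9230 in MEF3 and 2981, 2386 and 932. The TGF-beta ligand gene Tgfb1 read 947 in MEF3 and 581, 350 and 315, whereas the receptor gene Tgfbr2 read 11449 in MEF3 and 38740, 30693 and 19205.

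Known targets of TGF-beta and SRF split too. Ccn2, the connective tissue growth factor gene, read 37473 in MEF3 and 245, 968 and 3801 at days 12, 20 and 32. Postn, the matrix gene periostin, read 2321 in MEF3 and 7625, 12224 and 9415. Of 16 such genes measured, 7, 7 and 6 were at least 2-fold below MEF3 and 5, 4 and 6 above it, with values under 16 set to 16. Of all genes, counted without that floor, 31.5, 33.0 and 35.7% were below and 24.9, 25.8 and 28.1% above. The myosin light chain kinase gene Mylk read 14732 in MEF3 and 854, 768 and 451, and Myh11, smooth muscle myosin heavy chain, 2123 and 566, 580 and 468.

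In CiPSC against somatic samples, the wider smooth muscle list also lay lower. Of 15 other smooth muscle genes tested, 9 were lower and 0 higher, with a median log2 difference of -1.61 beside -0.11 over all genes (3 to 11 CiPSC and 2 to 7 somatic samples per gene of these lists). By the same rule 13.3% of all genes tested were lower and 14.8% higher. The largest differences were in the integrin gene Itga8 (-3.26 ± 0.62, SE), Mustn1 (-2.90 ± 0.42), Mylk (-2.74 ± 0.38) and Myh11 (-2.70 ± 0.82). Fhl1 (-1.02 ± 0.44) and Casq2 (-0.89 ± 0.26) were among the 6 that did not pass. Cells of every type carry a cytoplasmic actin cytoskeleton, and of 24 of its genes tested 11 were lower, 1 higher and 12 not called. Actb and Actg1, the cytoplasmic actins, differed by -0.59 ± 0.34 and 0.06 ± 0.24 without a call. Lower by the most were the focal adhesion gene Zyx (-3.91 ± 0.35), the filamin gene Flnc (-3.12 ± 0.39) and Pdlim7 (-2.20 ± 0.37), and higher was the alpha-actinin gene Actn4 (5.26 ± 0.79). In set 5 Actn4 was dim and went the other way, at 39.7 in the CiPSC control line, against 76.0 in MEF3.

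Of 25 regulators tested, 11 were lower, 4 higher and 10 not called. Here and for the target genes below, the shares over all genes tested were 13.3% lower and 14.8% higher. The TGF-beta receptor gene Tgfbr2 differed by -5.70 ± 0.46 (SE), Tgfb1i1 by -4.54 ± 0.38, Fhl2 by -4.23 ± 0.78 and the ligand gene Tgfb3 by -3.86 ± 0.68. In set 5, however, Tgfb3 read 5262.5 in the CiPSC control line, against 3954 in MEF3. Tgfb1 differed by -2.55 ± 0.28 and Srf by -1.49 ± 0.41, while Myocd (-0.27 ± 0.17), Mrtfa (-1.04 ± 0.45) and Tgfb2 (-0.83 ± 0.35) did not pass. The 4 that were higher were Klf4, which is also a pluripotency factor, Notch3, Smad7 and Csrp2. Of 15 TGF-beta and SRF target genes tested, 11 were lower and 0 higher, led by Egr1 (-6.32 ± 0.55), Itga11 (-5.50 ± 0.81), Ltbp2 (-4.74 ± 0.56) and Filip1l (-3.30 ± 0.41), with Postn (-3.21 ± 1.46) and Lox (-2.88 ± 1.36) not called.

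Striated muscle genes, which share parts with the smooth muscle apparatus, showed no common direction. Of 17 tested, 2 were higher, 3 lower and 12 not called. Of all genes tested, 14.8% were higher and 13.3% lower, for this and the other lists of this paragraph. Myl7, the atrial myosin light chain, was higher by 4.00 ± 0.53 and Tnnt1 by 1.90 ± 0.43, and the troponin gene Tnnt2 differed by -2.38 ± 0.73 (SE) and Tnnt3 by -1.19 ± 0.38. The sarcomeric actins Acta1 (1.79 ± 1.46) and Actc1 (-0.13 ± 0.78) were not called. Of 6 pericyte markers tested, Pdgfrb (-7.74 ± 1.58) and Cspg4 (-3.58 ± 0.52) were lower and 4 not called. Of 3 macrophage markers 2 were lower, and of 5 endothelial markers 1 was higher and 1 lower. Over the 11 CiPSC samples the summed level of fibroblast markers lay at 0.471, 1.17 and 26.6% of the somatic mean (lowest, median and highest), and that of the other smooth muscle genes at 10.7, 36.0 and 68.4%. These sums covered 3, 6, 10 and 13 fibroblast genes in sets 1, 2, 3 and 5, and 10, 14, 15 and 18 smooth muscle genes. They are therefore not alike across sets. In the CiPSC control line, for example, Vim gave 23829 of a fibroblast sum of 25727. The part of such cell mixtures in the gene differences was not tested. Between CiPSC and ESC, 0 genes of any of these lists were called by limma.

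Probes of the same gene did not always move together. A second Tpm1 probe measured in all 30 samples, PH_mM_0016107, was higher in CiPSC than in somatic samples, whereas PH_mM_0003132, used above, was lower. PH_mM_0016107 lay at 112, 245 and 572% of the somatic mean in CiPSC, against 31.9, 100 and 140% in somatic samples (lowest, median and highest). With every probe tested, its log2 difference was 1.43 ± 0.37 in CiPSC (SE, n = 11 and 7, adjusted p = 0.00405, limma) and 1.86 ± 0.44 in ESC (n = 5 and 7, adjusted p = 0.00209, limma). It did not pass in SKM-FSK iPSC (2.18 ± 0.77, adjusted p = 0.0615, limma) or in OSKM iPSC (-0.20 ± 0.61). Tpm1 gives rise to many transcripts by alternative splicing and alternative starts, and which of them each probe reads is not given in the sources used here. With the probes averaged, the Tpm1 difference in CiPSC was 0.14 (adjusted p = 0.801, limma).

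**Figure D5:**
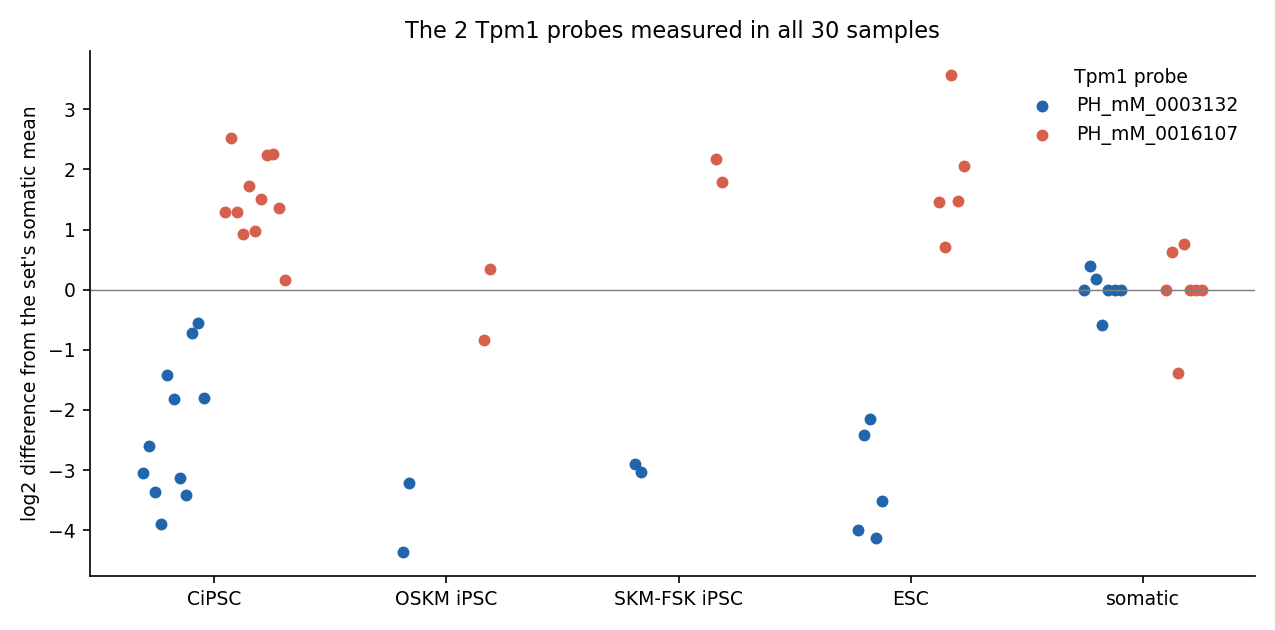
Log2 difference of each sample from the somatic mean of its set, for 2 Tpm1 probes (blue, PH_mM_0003132; red, PH_mM_0016107); a set's only somatic sample lies at 0 by construction. In all 11 CiPSC, all 5 ESC and both SKM-FSK iPSC samples the blue probe is below 0 and the red probe above 0; the OSKM iPSC lines are at -0.83 and 0.34 for the red probe.

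Another Tpm1 probe, PH_mM_0016108, was reported in sets 4 and 5 only. In set 4 it read 121 and 73.5 in SKM-FSK iPSC and 54.6 in ESC4, against 143 in MEF2. In set 5 it was listed at 0.167 in MEF3 and at 743, 754 and 729 at days 12, 20 and 32, and it read 642 in the CiPSC control line, against 440 in ESC5, so MEF3 alone was near 0. The second Acta2 probe, mMR027770, was erratic in set 5, at 64051 in MEF3, 0.1, 1.5 and 6895 at days 12, 20 and 32, and 0.1 in the CiPSC control line, against 0.167 in ESC5. Its difference from somatic samples passed in ESC (-10.06 ± 2.87, adjusted p = 0.0227, limma) and not in CiPSC (-8.50 ± 3.07, adjusted p = 0.0553, limma). Such near-zero values can be failed readings.

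The genes whose pattern was most like that of Acta2 and Tagln were ranked by Pearson's r of the log2 values, each centred on its set mean, over the 14 samples of sets 3, 4 and 5 and 13137 genes. The points share the division of MEF against all other samples, so high values come easily and no p is given. Acta2 and Tagln correlated at 0.952. For Acta2 the leading genes were Lrrc73 (0.971), Aff3 (0.942), Foxs1 (0.942), Prss23 (0.936), Rora (0.933) and Lmod1 (0.930), and for Tagln they were Lmod1 (0.951), Sytl2 (0.946), Ccn4 (0.943), Ifi47 (0.942), Aff3 (0.941) and Prss23 (0.936). Lmod1, the smooth muscle leiomodin, stands in both lists. The correlation with Acta2 was 0.801 for Myl9, 0.672 for Tpm1, 0.576 for Tpm2 and 0.384 for Cald1. These ranks were unstable: 2 of the 6 names for each gene were shared with Spearman's coefficient and 0 without set 5.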

How the data were processed

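The authors deposited 1 table of intensity values on a linear scale, normalized by them in 5 separate sets per the series' design text; per the labels, Cy5-labelled RNA was hybridised to a Phalanx mouse array. Neither the scanner nor how background was handled and probes were dropped is given in the sources read here. Of 26423 probes, 21876 carried 1 gene symbol, 0 several and 4547 none, and 21825 matched RefSeq by gene ID. Values were taken to log2 above a floor of 0.0001, the smallest positive value. The probe measured in most samples, and then the brightest, stood for a gene. Groups came from the labels. Differences were fitted with limma 3.58.1 (R 4.3.3), with group and set as terms over all 30 samples, and adjusted by Benjamini-Hochberg over all genes tested. A call needed an adjusted p under 0.05 and 2-fold, and a test needed 2 sets holding both groups (1 for SKM-FSK iPSC) and 3 residual degrees of freedom. The fit was tested on simulated data. Fitted differences can depart from those within a set, because other groups help to estimate the sets. Marker sums add linear intensities, in which the brightest genes weigh most. RefSeq coordinates are of GRCm38.p6, and the table names no build.

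Genes, lists and tests were chosen with earlier results of these data known. Named were all 8 genes, up to 4 called and 2 uncalled genes of each list by size of change in CiPSC against somatic samples, Actb, Actg1, Srf, Myocd, Myh11, Tgfb1i1, Tgfb1, Acta1 and Actc1, and the 6 genes most like Acta2 and Tagln. Other genes named were chosen after their values were seen. Alternatives covered normalization, low values, probes, the set term, the samples and sets in the fit, the variance prior and a replicate block. Whether the numbers in the sample titles pair the samples could not be settled. Of 13 pairs, 1 had a correlation of deviations over 0.1. However, deviations left by a fit of group and set are tied to each other in such small groups.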

Additional observations from a re-analysis of the deposited data

Results flagged for a closer look

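For 2 probes outside the tests, MEF3 read lower than every other sample of set 5. The Tpm1 probe PH_mM_0016108 read 743 at day 12, 754 at day 20 and 729 at day 32, against 0.167 in MEF3, and also 642 in the CiPSC control line and 440 in ESC5. The single Cnn1 probe read 20.1 at day 20, against 1.08 in MEF3, a difference of 0.33 on the log2 scale once values under 16 are set to 16, while the CiPSC control line had 21.5 and ESC5 14.1, all too dim to read. Values near 0 such as those of MEF3 can be failed readings. Neither difference was tested, because each day has 1 sample.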

How the results depend on the processing

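Recomputed under other settings, 762 gene values kept their direction and their side of the threshold, 19 no longer passed, 11 newly passed and 12 reversed. The number of genes called fell to 3 for CiPSC against somatic samples with only the 2 groups in sets that hold both, without set 5 and with the replicate block, and ranged from 3 to 6 with single samples left out, at 3 without MEF3 or without the CiPSC control line. It fell to 3 for ESC against somatic samples with only the 2 groups, without set 3 and with the replicate block (5 to 6 with single samples left out), and to 3 for SKM-FSK iPSC without set 3 and with the replicate block. In these cases 4 genes could be tested, Acta2 and Tagln not among them. For SKM-FSK iPSC the number was also 3 of 6 with a gene's probes averaged, and 2 to 5 with single samples left out. The replicate block used the numbers in the titles, and whether these pair the samples could not be settled. OSKM iPSC kept 3 calls and CiPSC against ESC 0 with single samples left out.

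With probes averaged, Tpm1 was at -0.03 in ESC and -1.38 in OSKM iPSC, without a call, and reversed in CiPSC (0.14) and SKM-FSK iPSC (0.13) against somatic samples. Against ESC, the uncalled Cald1 difference of CiPSC reversed with only the 2 groups (0.15), without set 1 (0.34), without set 5 (0.22), with the replicate block (0.92) and with single samples left out (-0.51 to 0.33), and that of Tpm2 without set 1 (0.19), with the replicate block (0.72) and with single samples left out (-0.28 to 0.14). The cause was not tested.

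With ESC5 in place of MEF3, 0 genes were 2-fold lower at day 12, 0 at day 20 and 0 at day 32, and the share of all genes below ESC5 is not given here. At days 12, 20 and 32 the differences from ESC5 were then 1.60, 2.22 and 2.78 for Tagln and 4.05, 3.92 and 3.90 for Myl9, 0.030 and 1.06 for Acta2 at days 20 and 32, 0.71 and 0.24 for Tpm2 at days 12 and 20, and -0.79 for Cnn1 at day 12. Of the 6 genes most like Acta2 and Tagln, 2 and 2 were shared with Spearman's coefficient and 0 and 0 without set 5. Dim signal limits Cnn1, Tpm2 and set 4 Tagln.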
